A study of Mus musculus with 12 samples.

Results

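The 10 genes described here make the proteins with which the liver handles iron and heme: hepcidin (Hamp), haptoglobin (Hp), hemopexin (Hpx), ceruloplasmin (Cp), transferrin (Trf), the transferrin receptor (Tfrc), the heavy and light ferritin chains (Fth1 and Ftl1), ferroportin (Slc40a1) and lipocalin-2 (Lcn2). They were picked by gene symbol, for their function, from a table of 13267 genes, and each of the 10 has 1 row in it. Messenger RNA was measured in livers of 12 C57BL/6 mice. Of these, 6 received 4-HPAA (4-hydroxyphenylacetic acid, a microbial breakdown product of aromatic compounds) under the skin, and the other 6 received the scaffold control. Every mouse, control or not, was treated for 6 weeks after a high-fat diet had brought on obesity and hepatic fat, so the controls are steatotic livers and not healthy ones. The sources used here do not give age, sex or dose. Replicate numbers are the only mark of origin in the labels, and p-values therefore reflect the scatter among these livers, with each library taken as 1 liver.

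The liver is the body's main iron store and the source of most iron-binding plasma proteins. Hepcidin, a peptide hormone of hepatocytes, binds ferroportin, the iron exporter of cells, and has it degraded, which lowers the release of iron into plasma. Hepatocytes raise hepcidin through BMP and SMAD signalling when iron is plentiful and through IL-6 and STAT3 in inflammation. Haptoglobin, hemopexin, ceruloplasmin and lipocalin-2 are also acute phase proteins, made in larger amounts when inflammatory cytokines reach the liver.

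Messenger RNA of lipocalin-2, hemopexin and haptoglobin averaged higher in 4-HPAA livers than in control livers, while that of hepcidin averaged lower with wide overlap. Lcn2 averaged 1636.8 ± 1317.2 normalised reads in 4-HPAA livers and 228.8 ± 123.9 in control livers, a 7.15-fold ratio (SD, n = 6 each). Hpx averaged 151943.7 ± 46672.0 and Hp 122378.5 ± 28476.4 in 4-HPAA livers, against 98012.0 ± 10961.1 and 90034.7 ± 8542.6 in control livers (SD, n = 6 each). Hamp averaged 13119.7 ± 4822.8 in 4-HPAA livers and 17165.3 ± 7280.8 in control livers (SD, n = 6 each). In whole tissue, fewer cells of a type and less RNA per cell cannot be told apart.

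No gene of the 10 passed a Benjamini-Hochberg adjusted p of 0.05 in limma's test across 12720 genes, and the share of all genes that passed was 0.0%. At an unadjusted p under 0.05, 3 of the 10 were higher in 4-HPAA livers (Hpx, Lcn2 and Hp) and 0 were lower. Over all genes tested, 14.8% had such a p, 7.26% higher and 7.56% lower. The exact permutation test over all divisions of the 12 livers into 6 and 6, whose smallest possible two-sided p is 0.00216, gave p = 0.0152 for Hpx, 0.0173 for Lcn2 and 0.026 for Hp. For the other 7 members the exact permutation p was 0.108 to 0.5. Differences were positive for 5 members and negative for 5, with a median of -0.09 on the log2 scale, beside a median of -0.001 over all genes, of which 49.8% were positive. The 4-HPAA and control values overlapped in all 10 members, and in all but 0.66% of the genes tested.

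The deposited values sum to 22869813 to 25255447 per library. 4-HPAA replicate 3 stood apart from the other libraries: its median correlation with them across genes was 0.969 (0.978 to 0.986 for the others), and it was the lowest of the 12 in 23.3% of genes, against 4.04 to 11.0% for each other library. The members that this library moved most are given with and without it. All 11 hepatocyte markers had a row, among them Alb, and their summed value was 2170860 to 2724765 in 4-HPAA livers and 2437980 to 2958637 in control livers. Of these 11 markers 8 had positive and 3 negative differences, with 3 higher (Ambp, Fgb and Cps1) and 1 lower (Alb) at an unadjusted p under 0.05. Alb, the largest part of the sum, averaged 1511587 ± 224096 in 4-HPAA livers and 1954494 ± 121265 in control livers (SD, n = 6 each), and 5 of the 6 4-HPAA livers lay below every control (log2 difference -0.38 ± 0.10, limma, adjusted p = 0.148). Other scalings shifted the balance of calls over all genes: at an unadjusted p under 0.05, 7.26% were higher and 7.56% lower as deposited, 5.26% and 8.80% when scaled by library total, and 5.38% and 8.89% by the upper quartile. The 3 member calls were the same genes under each scaling.

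Levels of different genes are compared here per length, as the normalised count divided by the kilobases of the longest coding transcript in GENCODE M21. Trf led in each group, with 149828.9 ± 15776.8 per kilobase in 4-HPAA livers and 143983.6 ± 12730.8 in control livers (SD, n = 6 each). In 4-HPAA livers Hpx (101363.4 ± 31135.4), Hp (90987.7 ± 21172.0) and Ftl1 (72728.0 ± 17441.6) came next, with overlapping spreads. In control livers the order of these 3 was Ftl1 (84710.2 ± 12362.1), Hp (66940.3 ± 6351.3) and Hpx (65384.9 ± 7312.3), and the means of Hp and Hpx lay closer together than their spread. Hamp, Fth1 and Cp followed in each group. Slc40a1 and Lcn2 stood in opposite order in the groups, with Lcn2 at 1788.9 ± 1439.5 and Slc40a1 at 834.1 ± 283.5 per kilobase in 4-HPAA livers, and Lcn2 at 250.1 ± 135.4 and Slc40a1 at 960.5 ± 221.8 in control livers. Tfrc was lowest, at 93.6 ± 26.2 per kilobase in 4-HPAA livers and 123.8 ± 43.4 in control livers. This order depends on the length used. Divided by the length of the transcript whose ID its row carries, an alternative chosen after seeing the data, Slc40a1 (408 bases) would stand at 6889.7 per kilobase in 4-HPAA livers and 7933.3 in control livers, above Cp and Lcn2 in each group. On that length Tfrc would exceed Lcn2 in control livers (325.4 against 276.7 per kilobase), but not in 4-HPAA livers (246.0 against 1979.2). The order in 4-HPAA livers would become Hp (163389.2), Ftl1 (116557.5) and Hpx (101363.4), with Hp close to Trf (164690.0). In control livers Hp (120206.5) would no longer lie close to Hpx (65384.9). Together the 10 genes took 2.70 to 3.68% of a library's total in 4-HPAA livers and 2.70 to 3.35% in control livers.

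**Figure D1:**
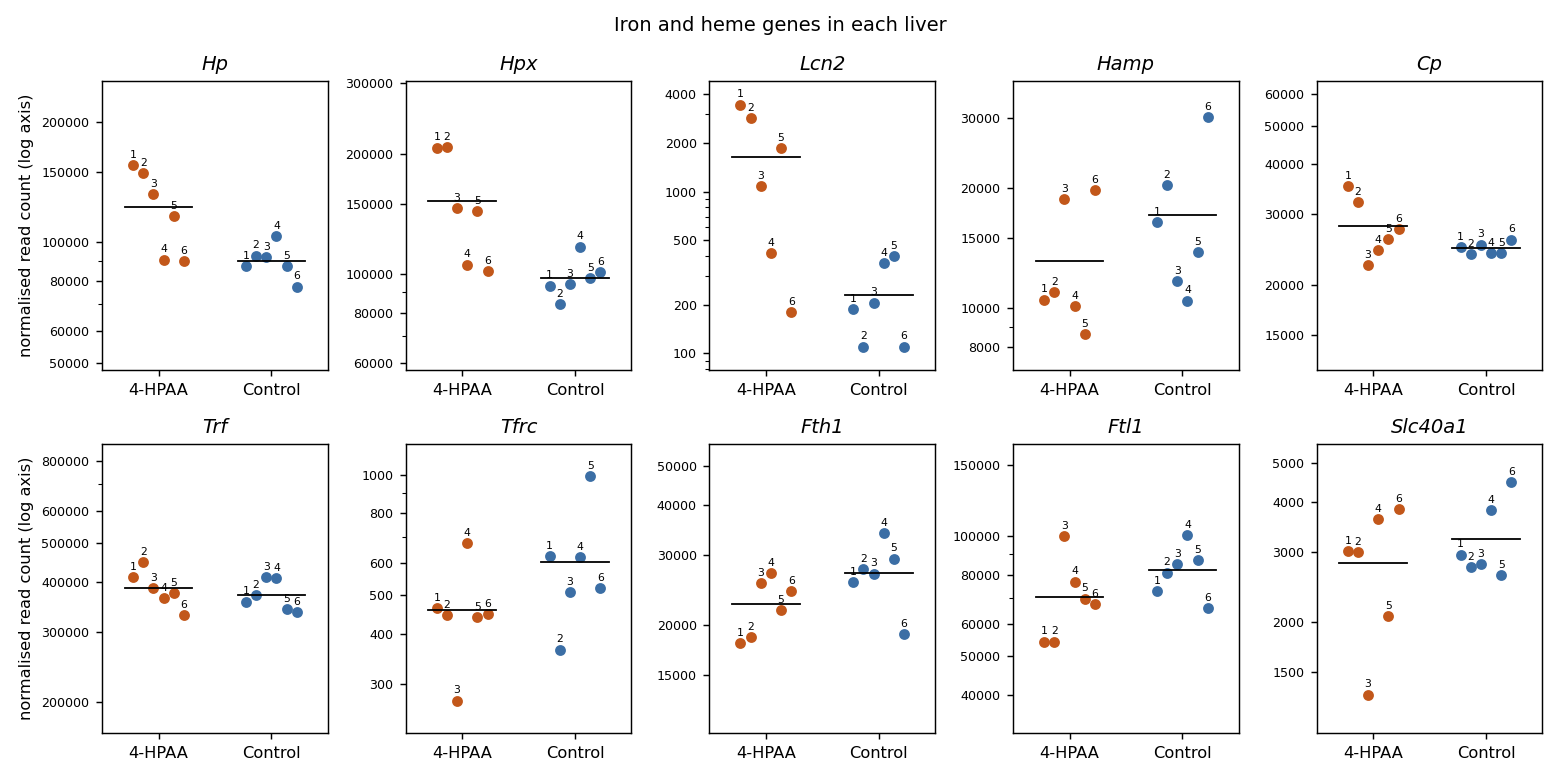
Normalised read count (log axis, a separate one for each gene) of the 10 genes in every liver, 4-HPAA at the left and Control at the right. Each point is 1 liver with its replicate number, and bars are group means. In Hp, Hpx and Lcn2 the 4-HPAA livers 1, 2, 3 and 5 lie above all controls, while livers 4 and 6 lie within or near the control range.

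Haptoglobin binds haemoglobin set free from red cells, and hemopexin binds free heme, so that both reach the liver without oxidative damage. Hp (ENSMUSG00000031722) lies on the minus strand at chr8:109575128-109579172 of GRCm38, and Hpx (ENSMUSG00000030895) on the minus strand at chr7:105591613-105600137. Hpx ran from 101744 through a median of 144940.5 to 207387 in 4-HPAA livers, and from 84271 through 96015 to 117212 in control livers. The 4-HPAA livers 1 and 2, at 207107 and 207387, were the highest, livers 3 and 5 (146228 and 143653) also exceeded every control, and livers 4 and 6 (105543 and 101744) lay among the controls. The log2 difference of Hpx was 0.58 ± 0.17 (SE), with a 95% interval of 0.21 to 0.95 (limma, adjusted p = 0.191). Leaving out 1 library at a time gave 0.48 to 0.69.

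Hp ran from 89929 through 124209 to 156413 in 4-HPAA livers, and from 77560 through 89622 to 103542 in control livers. The same 4 livers (1, 2, 3 and 5) exceeded every control, and livers 4 (90558) and 6 (89929) lay close to the control mean. Hp had a log2 difference of 0.41 ± 0.14 (SE), with a 95% interval of 0.12 to 0.71 (limma, adjusted p = 0.206). With 1 library left out, the log2 difference of Hp stayed within 0.34 to 0.50. Within a liver the ratio of Hpx to Hp counts was 1.11 to 1.39 in 4-HPAA livers and 0.909 to 1.30 in control livers, so the ratio overlapped between the groups.

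Lipocalin-2 binds the iron-carrying siderophores of bacteria and withholds iron from them, and hepatocytes make it in the acute phase response. Lcn2 (ENSMUSG00000026822) lies on the minus strand at chr2:32384633-32388252. It ran from 180 through 1473 to 3446 in 4-HPAA livers, and from 110 through 196.5 to 397 in control livers. The 4-HPAA livers 1, 2, 3, 4 and 5 (3446, 2834, 1086, 415 and 1860) all exceeded the highest control, liver 4 by little, and liver 6 lay at 180. Lcn2 had a log2 difference of 2.40 ± 0.70 (SE), with a 95% interval of 0.87 to 3.92 (limma, adjusted p = 0.193). Lcn2 also varied most within groups, with an SD of the log2 value of 1.67 in 4-HPAA livers and 0.80 in control livers. Leaving out 1 library at a time gave a log2 difference of 2.06 to 2.91. Neutrophils store lipocalin-2 too. Of 11 neutrophil markers, 8 had no row, among them Ly6g, Mpo and Ltf. The other 3 (S100a8, S100a9 and Csf3r), all at low values, together summed to 44 to 92 in 4-HPAA livers and 28 to 151 in control livers. That sum was 64 and 48 in 4-HPAA livers 1 and 2, the highest for Lcn2. It was 28, 35 and 28 in control replicates 1 to 3, and 114, 79 and 151 in control replicates 4 to 6. The part of neutrophils in the level of Lcn2 was not tested. By Spearman's rho over the 12 livers, given as a description, the genes most like Lcn2 were the acute phase genes Saa2 (0.984), Orm2 (0.970) and Saa1 (0.939).

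**Figure D2:**
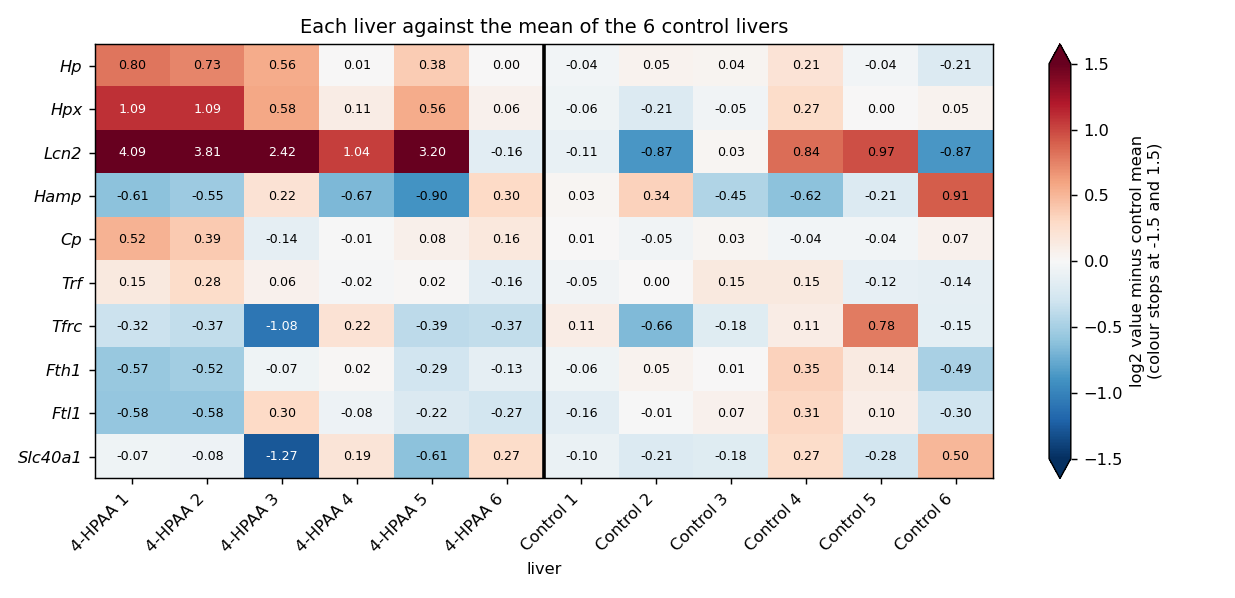
Log2(value + 1) of each of the 10 genes (rows) in each liver (columns) minus the mean of the 6 control livers, 4-HPAA at the left of the black line and Control at the right. Colours stop at -1.5 and 1.5 and the numbers give each value. Lcn2 reaches 4.09 in 4-HPAA liver 1, the ferritin rows are lowest in 4-HPAA livers 1 and 2, and 4-HPAA liver 3 has the lowest Slc40a1 and Tfrc.

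Hamp (ENSMUSG00000050440) encodes the precursor of hepcidin and lies on the minus strand at chr7:30942368-30944032. It ran from 8606 through 10748.5 to 19754 in 4-HPAA livers, and from 10466 through 15139 to 30165 in control livers. The 4-HPAA livers 1, 2, 4 and 5 (10523, 10974, 10122 and 8606) were near or below the lowest control, while livers 3 and 6 (18739 and 19754) lay high among the controls. Control replicate 6 was the highest of all. The log2 difference was -0.37 ± 0.27 (SE), with a 95% interval of -0.95 to 0.22 (limma, adjusted p = 0.564). Without control replicate 6 it was -0.19, and without 4-HPAA replicate 6 it was -0.50. On the log2 scale Hamp stood at -0.61, -0.55, 0.22, -0.67, -0.90 and 0.30 from the control mean in 4-HPAA livers 1 to 6, and at -0.62 in control replicate 4. Low Hamp occurred in livers with high Lcn2 (4-HPAA 1, 2 and 5) and in livers with Lcn2 near the highest control values (415 in 4-HPAA liver 4 and 363 in control replicate 4). It also occurred in control replicate 3 (Hamp at -0.45), where Lcn2 was 206. 4-HPAA liver 3, with Lcn2 at 1086, had Hamp above the control mean. A link between Hamp and Lcn2 was not tested. The genes most like Hamp by Spearman's rho over the 12 livers were Ccdc166 (0.904), Neat1 (0.874) and Zfp637 (0.846), given as a description.

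The mouse has a second hepcidin gene, Hamp2, whose transcript matches Hamp at 388 of 410 aligned bases (94.6%), so the split of reads between the pair is unsure and each level is uncertain. Hamp2 ran from 197 through 345 to 1823 in 4-HPAA livers, and from 560 through 1615.5 to 3922 in control livers. Livers 1, 2, 3 and 5 of the 4-HPAA group (197, 246, 392 and 298) lay below every control, and livers 4 and 6 (1823 and 1124) lay among them. Hamp2 had a log2 difference of -1.67 ± 0.60 (SE, limma, adjusted p = 0.238). The ratio of Hamp2 to Hamp counts was 0.0187 to 0.180 in 4-HPAA livers and 0.0186 to 0.375 in control livers.

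The proximal promoters of hepcidin and of the higher genes with a promoter in the RefSeq table (GRCm38.p6) are shown because the known control of hepcidin runs through short sites close to its start. Each is the 250 bases before the RefSeq start site, 5' to 3' on the gene's strand, with matches to the searched motifs in capitals. The windows are chr7:30944030-30944279 for Hamp, chr7:105600117-105600366 for Hpx and chr2:32387740-32387989 for Lcn2, all on the minus strand. The Lcn2 window lies inside the GENCODE span of its gene, whose 5' end is further upstream.
Hamp: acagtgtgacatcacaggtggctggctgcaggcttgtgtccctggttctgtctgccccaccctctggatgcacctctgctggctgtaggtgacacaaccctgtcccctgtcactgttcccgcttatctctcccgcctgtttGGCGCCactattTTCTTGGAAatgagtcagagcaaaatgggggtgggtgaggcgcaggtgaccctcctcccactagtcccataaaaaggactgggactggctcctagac
Hpx: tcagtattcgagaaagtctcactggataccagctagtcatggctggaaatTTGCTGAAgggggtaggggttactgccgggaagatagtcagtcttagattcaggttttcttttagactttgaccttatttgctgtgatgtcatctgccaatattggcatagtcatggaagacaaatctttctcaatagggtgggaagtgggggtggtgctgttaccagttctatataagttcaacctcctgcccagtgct
Lcn2: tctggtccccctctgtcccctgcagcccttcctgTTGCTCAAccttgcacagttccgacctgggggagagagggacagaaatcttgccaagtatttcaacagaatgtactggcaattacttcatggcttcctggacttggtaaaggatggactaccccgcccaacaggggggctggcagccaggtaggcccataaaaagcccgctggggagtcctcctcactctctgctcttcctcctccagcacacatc
Motifs were searched on both strands: the STAT motif TTCNNNGAA, the type II acute phase motif CTGGGAA, the BMP response motif GGCGCC, the C/EBP motif TTGCNNAA and the NF-kB motif (GGGA, any 4 bases, CC). Hamp held a BMP response motif at -109 to -104 and a STAT motif at -97 to -89 from its start site. Hpx held a C/EBP motif at -200 to -193, and Lcn2 one at -216 to -209. These motifs were not particular to the genes shown. Among the other members, Fth1 held C/EBP motifs at -129 to -122 and -58 to -51, and Cp one at -70 to -63. Fth1 and Cp each held an NF-kB motif as well, and Tfrc held a BMP response motif at -89 to -84. Fth1, Cp and Tfrc each have another RefSeq window, which held no match. The Fth1 window with matches lies inside the GENCODE span of that gene. For Tfrc, the bases after the start site were found in no GENCODE transcript of the gene. Over 32807 promoter windows of this length, 7.02% held the STAT, 9.10% the type II, 9.59% the BMP response, 9.57% the C/EBP and 17.7% the NF-kB motif. These matches describe the letters of the windows only.

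Transferrin carries iron in plasma, and ceruloplasmin is the copper enzyme that oxidises iron so that transferrin can take it up. Trf (ENSMUSG00000032554, minus strand, chr9:103204001-103230444) ran from 330288 through 379015 to 448223 in 4-HPAA livers, and from 335226 through 363204.5 to 410016 in control livers, and the groups overlapped, with 4-HPAA livers 1 and 2 above every control. Trf had a log2 difference of 0.06 ± 0.09 (SE), with a 95% interval of -0.13 to 0.24 (limma, adjusted p = 0.818). It was 0.01 without 4-HPAA replicate 2 and 0.10 without 4-HPAA replicate 6. The gene model Gm20425 overlaps exons of Trf on the same strand.

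Cp (ENSMUSG00000003617, plus strand, chr3:19957054-20009145) ran from 22356 through 26769.5 to 35374 in 4-HPAA livers, and from 23887 through 24464 to 25933 in control livers. The 4-HPAA livers 1 and 2 (35374 and 32235) were the highest, livers 5 and 6 were just above the controls, and liver 3 was the lowest of all 12. Cp had a log2 difference of 0.17 ± 0.10 (SE, limma, adjusted p = 0.471), with a 95% interval of -0.05 to 0.38. Without 4-HPAA replicate 3 it was 0.23 (limma, adjusted p = 0.207), without 4-HPAA replicate 1 it was 0.09, and with quantile normalization it was 0.045. The spread of Cp differed between the groups, with an SD of the log2 value of 0.25 in 4-HPAA livers and 0.05 in control livers. Exons of Hps3, on the other strand, overlap those of Cp, and the sources used here do not say whether counting used strand.

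Ferritin, ferroportin and the transferrin receptor are governed after transcription by iron regulatory proteins, which bind a hairpin called the iron responsive element. Bound near the 5' end of a message the proteins block its translation, and bound near the 3' end they protect it from decay. The elements are shown because they mark which of the 10 messages carry this control, and of the 10 only these 4 genes matched the search. Each line is 29 bases of a GENCODE M21 transcript, 5' to 3', with the 6-base loop in capitals.
Fth1, 5' end: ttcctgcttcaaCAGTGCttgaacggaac
Ftl1, 5' end: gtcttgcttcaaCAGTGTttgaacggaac
Slc40a1, 5' end: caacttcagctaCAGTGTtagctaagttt
Tfrc, 3' end, element at 32631219: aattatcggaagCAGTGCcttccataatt
Tfrc, 3' end, element at 32631598: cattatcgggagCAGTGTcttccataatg
Tfrc, 3' end, element at 32631663: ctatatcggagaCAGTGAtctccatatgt
Tfrc, 3' end, element at 32631710: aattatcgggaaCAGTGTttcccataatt
The search asked for C, any 5 bases, CAGTG and 1 further base, with 5 bases on each side of the loop that can pair, and 1.01% of 21877 coding genes held a match. In GRCm38 the elements lie at chr19:9982732-9982760 (Fth1, plus strand), chr7:45459779-45459807 (Ftl1, minus strand), chr1:45925465-45925493 (Slc40a1, minus strand) and, for Tfrc on the plus strand of chromosome 16, at 32631219-32631247, 32631598-32631626, 32631663-32631691 and 32631710-32631738. The first 3 genes have theirs in the 5' UTR and Tfrc in the 3' UTR, which is what 5' end and 3' end stand for above. In the transcripts used, the stretch starts at base 658 of 1494 in Fth1, 78 of 968 in Ftl1 and 90 of 3370 in Slc40a1. Counts of RNA do not measure translation.

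The ferritin chains, which build the shell that stores iron, both averaged lower in 4-HPAA livers without passing the test. Fth1 (ENSMUSG00000024661, plus strand, chr19:9980598-9985098) ran from 18029 through 23077.5 to 26975 in 4-HPAA livers, and from 19025 through 27298 to 33922 in control livers. In 4-HPAA livers, numbers 1 and 2 (18029 and 18676) lay below every control, and no 4-HPAA liver exceeded the control mean. Fth1 had a log2 difference of -0.26 ± 0.14 (SE, limma, adjusted p = 0.394), with a 95% interval of -0.55 to 0.03. It was -0.36 without control replicate 6 (limma, adjusted p = 0.178), and -0.31 without 4-HPAA replicate 4 (limma, adjusted p = 0.242). It was -0.19 without control replicate 4, -0.20 without 4-HPAA replicate 1 and -0.21 without 4-HPAA replicate 2.

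Ftl1 (ENSMUSG00000050708, minus strand, chr7:45457944-45459884) ran from 54351 through 68545.5 to 99733 in 4-HPAA livers, and from 65947 through 82964 to 100461 in control livers. Livers 1 and 2 of the 4-HPAA group (54383 and 54351) were again the lowest, and liver 3 was high, at 99733. Ftl1 had a log2 difference of -0.24 ± 0.14 (SE, limma, adjusted p = 0.462), with a 95% interval of -0.55 to 0.07, and -0.35 without 4-HPAA replicate 3 (limma, adjusted p = 0.172). It was -0.17 without 4-HPAA replicate 1 or without 4-HPAA replicate 2, and -0.18 without control replicate 4. The ratio of Fth1 to Ftl1 counts averaged 0.326 ± 0.038 in 4-HPAA livers and 0.329 ± 0.023 in control livers (SD, n = 6 each), and 4-HPAA liver 3 was lowest at 0.256. Each ferritin gene has pseudogene copies in the annotation, so part of its reads may have been counted elsewhere or left out, and its level is uncertain.

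The transferrin receptor takes up transferrin-bound iron at the cell surface. Tfrc (ENSMUSG00000022797, plus strand, chr16:32608920-32632794) ran from 272 through 447 to 674 in 4-HPAA livers, and from 365 through 570.5 to 992 in control livers. Of the 4-HPAA livers, 4 lay between 441 and 464, liver 3 was lowest and liver 4 highest, and control replicate 5 was the highest of all 12. Tfrc had a log2 difference of -0.38 ± 0.23 (SE, limma, adjusted p = 0.454), with a 95% interval of -0.87 to 0.105. It was -0.24 without 4-HPAA replicate 3 and -0.23 without control replicate 5. Without control replicate 2 it was -0.52 and without 4-HPAA replicate 4 it was -0.51, both with an unadjusted p under 0.05 and neither past the adjusted threshold (limma).

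Ferroportin exports iron from hepatocytes and Kupffer cells, the liver's macrophages. Slc40a1 (ENSMUSG00000025993, minus strand, chr1:45908068-45926523) ran from 1319 through 3005 to 3834 in 4-HPAA livers, and from 2620 through 2875 to 4486 in control livers. The 4-HPAA livers 3 (1319) and 5 (2073) lay below every control, and the other 4 lay among the controls. Slc40a1 had a log2 difference of -0.26 ± 0.24 (SE, limma, adjusted p = 0.652), with a 95% interval of -0.78 to 0.25, and -0.06 without 4-HPAA replicate 3. All 11 Kupffer cell and macrophage markers had a row, with 0 at an unadjusted p under 0.05. Their summed value was 4183 to 6997 in 4-HPAA livers and 2791 to 10996 in control livers. The controls lay on both sides of the 4-HPAA range. Control replicates 1 to 3 (3117, 3638 and 2791) were below it, and control replicates 4 to 6 (7935, 7306 and 10996) were above it. The macrophage sum was 6140 in 4-HPAA liver 3, where Slc40a1 was lowest, and 10996 in control replicate 6, where Slc40a1 was highest. The part of macrophage number in the level of Slc40a1 was not tested.

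**Figure D3:**
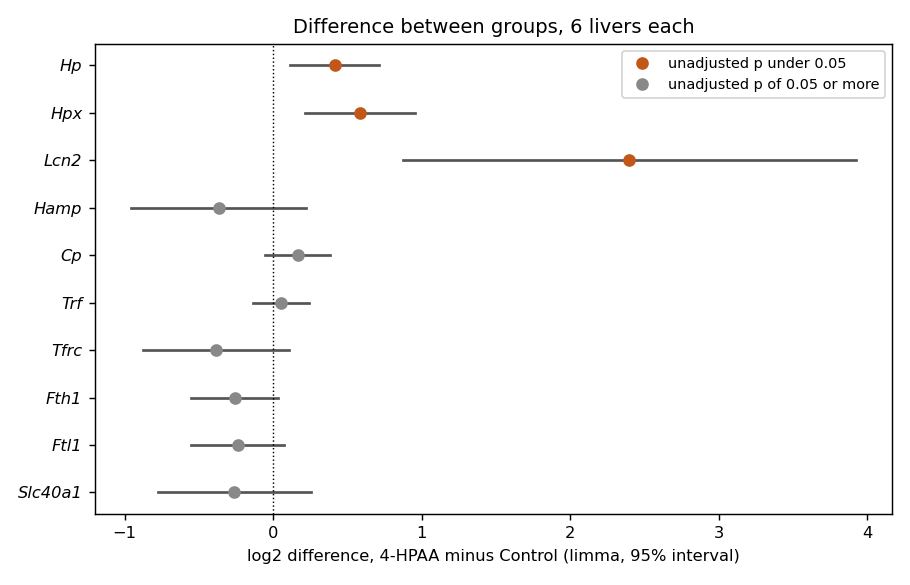
Log2 difference (4-HPAA minus Control) of the 10 genes with the 95% interval from limma, 6 livers in each group. The intervals of Hp, Hpx and Lcn2 lie above 0, those of the other 7 include 0, and that of Trf is the narrowest.

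Genes listed for BMP, HFE and SMAD control of hepcidin were mostly close between the groups. Of the 20 genes in this list 19 were tested, with a median log2 difference of -0.004. At an unadjusted p under 0.05, 1 was higher (Tfr2) and 1 lower (Hamp2), beside 7.26% and 7.56% of all genes. Hamp2 is itself a hepcidin gene and not a regulator of one. Tfr2, the second transferrin receptor, a sensor of transferrin-bound iron in hepatocytes, averaged 12335.5 ± 1968.7 in 4-HPAA livers and 9552.8 ± 820.1 in control livers (SD, n = 6 each). All 6 4-HPAA livers exceeded the control mean for Tfr2 and 4 exceeded every control, with a log2 difference of 0.36 ± 0.11 (SE, limma, adjusted p = 0.189). The co-receptor Hjv was at 0.04 ± 0.13, Hfe at -0.03 ± 0.08, the protease Tmprss6, which trims Hjv, at 0.08 ± 0.08 and the ligand Bmp6 at 0.21 ± 0.16 (log2 difference ± SE). Id1, a target of BMP signalling, was at -0.60 ± 0.37 and the BMP receptor Acvr1 at 0.20 ± 0.11.

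In the list of the IL-6 and STAT3 arm of hepcidin control, 11 of 12 genes were tested, and 2 were higher (Stat3 and Socs3) and 0 lower at an unadjusted p under 0.05, a share near the 14.8% of all genes. Its differences were positive for 8 genes and negative for 3, with a median of 0.08 beside -0.001 over all genes, whose median absolute difference was 0.129. Socs3, the feedback inhibitor that STAT3 switches on, ran from 172 through 418 to 658 in 4-HPAA livers, and from 96 through 184 to 411 in control livers. Socs3 had a log2 difference of 1.11 ± 0.37 (SE, limma, adjusted p = 0.206). Stat3 averaged 3091.8 ± 704.2 in 4-HPAA livers and 2236.5 ± 240.5 in control livers (SD, n = 6 each), a log2 difference of 0.44 ± 0.14. It had an adjusted p of 0.2, and of 0.0303 without 4-HPAA replicate 4 (limma). In the fit without that library 193 of all 12720 genes passed, against 0 with every library in. Il1r1 was at 0.61 ± 0.28, Jak1 at 0.16 ± 0.08, Creb3l3, a liver transcription factor that acts on Hamp, at 0.08 ± 0.09, and the receptor Il6ra at -0.02 ± 0.22 (log2 difference ± SE).

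Among 13 genes of iron uptake and export 10 were tested, with a median of 0.15. At an unadjusted p under 0.05, 2 were higher (Slc11a2 and Steap4) and 1 lower (Heph), beside 7.26% and 7.56% of all genes. Heph, the membrane ferroxidase hephaestin, was low throughout, at 11 to 23 in 4-HPAA livers and 26 to 51 in control livers, and the groups did not overlap, as in 0.66% of all genes. Heph had a log2 difference of -0.98 ± 0.21 (SE, limma, adjusted p = 0.125). Its adjusted p was 0.0451 without 4-HPAA replicate 4 (limma), a fit in which 193 of all 12720 genes passed. At values as low as those of Heph, counting error is large. Slc11a2, the iron importer DMT1, was at 0.26 ± 0.08, and the metalloreductases Steap4 at 0.42 ± 0.15 and Steap3 at 0.22 ± 0.12 (log2 difference ± SE). Slc39a14, which imports iron not bound to transferrin, was at 0.18 ± 0.11.

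Genes of iron storage and iron sensing did not pass: of 8 genes 7 were tested, 0 had an unadjusted p under 0.05, and the median log2 difference was 0.11. Pcbp1, an iron chaperone of ferritin, was at 0.15 ± 0.08, Ncoa4, which leads ferritin to breakdown, at 0.19 ± 0.10, and Fbxl5, which marks an iron regulatory protein for breakdown, at -0.17 ± 0.11. The iron regulatory proteins Aco1 and Ireb2 were at 0.105 ± 0.065 and -0.20 ± 0.23 (log2 difference ± SE), and Ireb2 was at 0.02 without 4-HPAA replicate 3. In the list of mitochondrial iron and iron-sulfur cluster genes all 18 were tested, 0 had an unadjusted p under 0.05, and the median was -0.07. Among its members, the cysteine desulfurase Nfs1 was at 0.11 ± 0.06, Glrx5 at -0.20 ± 0.12 and the ferredoxin Fdx1 at 0.10 ± 0.08 (log2 difference ± SE).

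Heme synthesis showed 2 genes higher (Abcb10 and Slc25a38) and 1 lower (Pgrmc1) of 14 at an unadjusted p under 0.05. Over all genes these shares were 7.26% and 7.56%. The median log2 difference of the list was 0.003. Alas1, the rate-limiting enzyme of heme synthesis in liver, averaged 25632.0 ± 8985.6 in 4-HPAA livers and 29230.2 ± 6656.1 in control livers (SD, n = 6 each). Alas1 had a log2 difference of -0.28 ± 0.29, and 0.01 without 4-HPAA replicate 3, which had 8596. Abcb10, a transporter of the inner mitochondrial membrane, was at 0.25 ± 0.09, Slc25a38, which brings glycine into mitochondria, at 0.17 ± 0.07, and the heme-binding protein Pgrmc1 at -0.28 ± 0.12 (log2 difference ± SE). Slc25a38 was 545 to 722 in 4-HPAA livers and 524 to 544 in control livers (limma, adjusted p = 0.291). The groups did not overlap, as in 0.66% of all genes, but their nearest values were 545 and 544. Urod was at 0.12 ± 0.09.

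In the list of heme and haemoglobin scavenging and breakdown, all 9 genes were tested, and the median was 0.02. At an unadjusted p under 0.05, 1 was higher (Lrp1) and 0 lower, beside 7.26% and 7.56% of all genes. Lrp1, the receptor that takes up the heme and hemopexin complex, averaged 21201.3 ± 3807.6 in 4-HPAA livers and 17111.3 ± 1275.9 in control livers (SD, n = 6 each). Lrp1 had a log2 difference of 0.29 ± 0.12 (SE, limma, adjusted p = 0.267). Its adjusted p was 0.0467 without 4-HPAA replicate 4 (limma), a fit in which 193 of all 12720 genes passed. Cd163, the macrophage receptor for haptoglobin and haemoglobin, ran from 39 to 334 in 4-HPAA livers and from 76 to 223 in control livers, with a log2 difference of 0.02 ± 0.44. The heme oxygenase Hmox1, which opens the heme ring, was at -0.08 ± 0.22 and Hmox2 at 0.09 ± 0.09. The biliverdin reductase Blvrb was at -0.18 ± 0.13 and the heme transporter Slc48a1 at -0.16 ± 0.09 (log2 difference ± SE). Of the lipocalin-2 partners, 3 of 4 were tested with 0 at an unadjusted p under 0.05 and a median of 0.05. The uptake receptor Lrp2 was at 0.54 ± 0.28, the receptor Slc22a17 at -0.12 ± 0.24 and the siderophore enzyme Bdh2 at 0.05 ± 0.11.

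**Figure D4:**
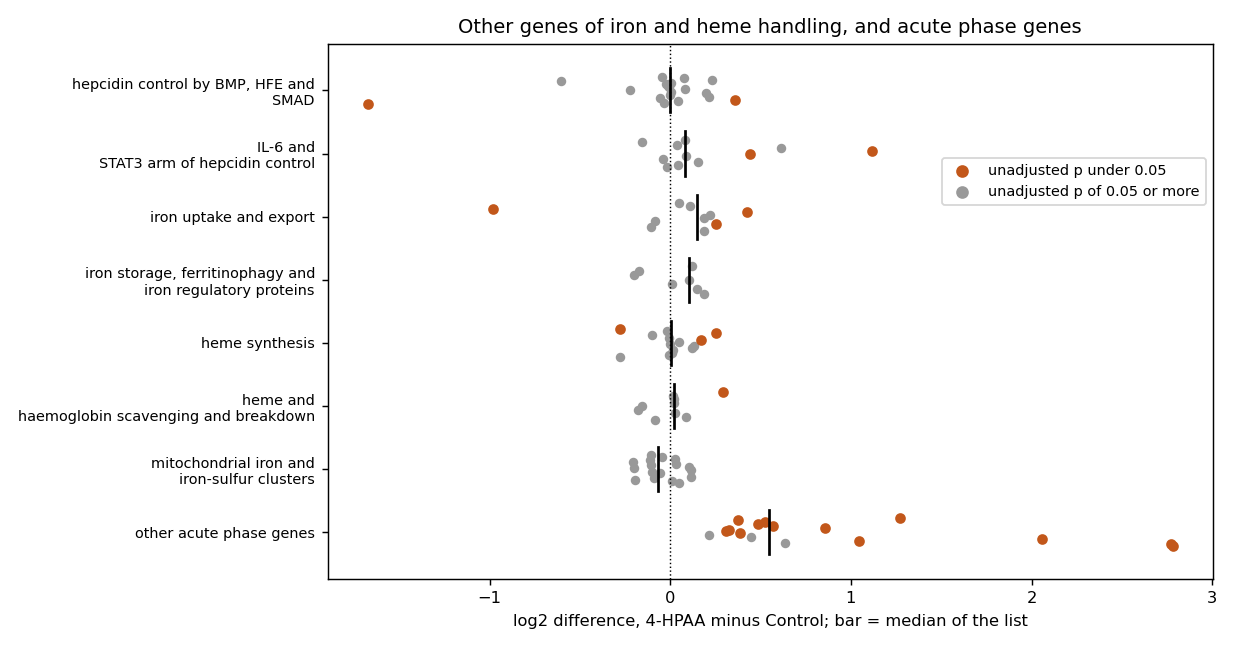
Log2 difference (4-HPAA minus Control) of each tested gene in 7 of the 8 lists of iron and heme handling, which leave out the 10 genes, and in 16 other acute phase genes. Orange points have an unadjusted p under 0.05 and bars are list medians. The iron and heme lists have medians of -0.07 to 0.15, and the acute phase list 0.55.

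Since Hp, Hpx, Lcn2 and Cp belong to the acute phase response, 16 other acute phase genes were set beside them, and of the 4 members Cp had the smallest difference, at 0.17. All 16 were positive and 13 had an unadjusted p under 0.05, beside 49.8% and 14.8% of all genes. Their median log2 difference was 0.55. The list was drawn up with earlier results of these livers known, so its direction is no independent evidence. The 4 with the smallest p were Orm1 (1.05 ± 0.26), Itih4 (0.57 ± 0.15), Fgl1 (1.27 ± 0.34) and Lbp (0.53 ± 0.14). Orm1 was high in the same 4-HPAA livers, at 35027, 37046, 25969 and 30938 in livers 1, 2, 3 and 5. It was 13687 and 15027 in 4-HPAA livers 4 and 6, against 8454 to 14834 in control livers. Not every gene of the list followed these livers. Saa3 was highest in 4-HPAA liver 4 (369) and lowest of its group in liver 5 (81). Crp was lowest of its group in 4-HPAA liver 3 (6932).

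Red cells left in the tissue would bring globin messages, and the 4 globin genes together summed to 364 to 1411 in 4-HPAA livers and 543 to 1532 in control livers. Of the 8 erythroid markers 5 were tested, with 0 at an unadjusted p under 0.05 and a median log2 difference of -0.42. 4-HPAA liver 3 had the most globin of its group (1411). Sinusoidal endothelial cells make BMP ligands for hepcidin control. The summed value of their 8 markers was 4783 to 6615 in 4-HPAA livers and 4956 to 6116 in control livers. Of these markers 2 were lower (Pecam1 and Oit3) at an unadjusted p under 0.05, beside 7.56% of all genes. The summed cholangiocyte markers were 1064 to 1876 in 4-HPAA livers and 1037 to 1715 in control livers. The summed lymphocyte markers were 86 to 200 in 4-HPAA livers and 53 to 117 in control livers. Of the lymphocyte markers, Cd4 was higher at an unadjusted p under 0.05, beside 7.26% of all genes. The part of these cells in the levels of the 10 genes was not tested.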

How the data were processed

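Liver RNA of 12 mice was sequenced from directional TruSeq mRNA libraries on a NovaSeq instrument, per the labels' protocols. Per the submitters' processing notes, the build was GRCm38 and the tools were STAR, HTSeq, cutadapt, FastQC 0.11.9, edgeR and DESeq2 1.28.1, with no role or order given. The deposited values were treated as a score: they look like counts that the authors normalised by library and then rounded to whole numbers, since single low numbers are missing or doubled at regular spacing, and median-of-ratio factors of the columns are 1.003 to 1.009. The smallest value is 2 and the table holds 0 mitochondrial genes, so genes without reads in a library cannot be judged. Each gene stands under 1 Ensembl transcript ID, for Hp, Ftl1 and Lcn2 that of a noncoding transcript, and the sources used here do not say if a value covers the whole gene. GENCODE M21 (Ensembl 96) named 13200 of 13267 IDs.

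Log2(value + 1) of the 12720 genes with at least 10 in at least 6 libraries was tested with limma 3.58.1 in R 4.3.3 (trend and robust settings, no covariate), tested on simulated data first, with Benjamini-Hochberg adjustment over all of them and a threshold of 0.05. Fold changes on this scale understate low genes. Intervals are limma's 95% intervals. No libraries of 1 group were duplicates (chi-square per gene 17.86 to 119.92). The 10 genes and all lists were chosen with earlier results of these data known. Genes named beside them are the 4 of smallest p in each pathway list (1 of them is not reported here), those whose role needed a value, and the 3 most like Hamp and Lcn2 by Spearman's rho. Alternatives were other pseudocounts, filters, scalings, weights, a plain test, a replicate block, exact permutation and each library left out. Python 3.11.15 and matplotlib 3.10.9 drew the figures.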

Additional observations from a re-analysis of the deposited data

Results flagged for a closer look

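Within a group of 6, a library was singled out where its gap to the next one exceeded Dixon's 95% critical share of the group's range, which chance alone gives in about 5% of groups; 104 groups of 52 genes were looked at. 4-HPAA replicate 3 was the highest of its group for Id1 at 208, for Nfs1 at 1796 and for Urod at 2930, and the lowest for Alas1 at 8596. Control replicate 5 was the highest control for Slc11a2 at 757, and control replicate 3 for Stat3 at 2696. None of the 10 iron and heme genes had such a gap in either group.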

How the results depend on the processing

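None of the 10 genes changed sign or passed an adjusted p of 0.05 under any of the 22 alternatives fitted with limma. Hp, Hpx and Lcn2 were the 3 members higher at an unadjusted p under 0.05 in each, with Cp added under array weights and without 4-HPAA replicate 3. The count of members lower at that p was 0 as reported, 1 with quantile normalization (Fth1), 2 with array weights (Fth1 and Ftl1), and 0 to 2 with 1 library left out. Over all genes, the count at an adjusted p under 0.05 was 0 as reported, 139 with array weights, and 0 to 193 with 1 library left out (193 without 4-HPAA replicate 4, 5 without control replicate 1).

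With a replicate block the count over all genes was 11 and no member call changed; the same numbers do not pair the livers, since the deviations of same-numbered livers correlated at -0.183 to 0.282 and not every liver was most like its own number.

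Beside the members, Heph (-0.89) and Steap4 (0.55) passed an adjusted p of 0.05 with array weights. Some differences of other genes changed sign, among them Alas1 (-0.28 as reported) and Ireb2 (-0.20 as reported). With array weights Alas1 was 0.054, Creb3l3 -0.002, Hjv -0.078 and Hmox1 0.017; Cd163 was -0.012 scaled by total and -0.006 by upper quartile; Slc22a17 was 0.055 with quantile normalization. With 1 library left out the log2 differences ran from -0.392 to 0.013 for Alas1, -0.015 to 0.103 for Bdh2, -0.229 to 0.384 for Cd163, -0.053 to 0.112 for Hjv, -0.202 to 0.045 for Hmox1, -0.193 to 0.104 for Il6ra and -0.301 to 0.023 for Ireb2. The cause was not tested. With 6 livers a group, the 95% interval of Hamp leaves log2 differences from -0.95 to 0.22 compatible with these data.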
